A study of Mus musculus with 24 samples.

Results

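The genes of the synapse were followed through the neural differentiation of mouse embryonic stem cells. They comprised 36 genes chosen by symbol, of which 31 were among the 17545 genes of the expression table. Of these, 19 act mainly in the presynaptic terminal, 11 act in the postsynaptic membrane and 1, Gabbr1, acts on both sides. Sv2b, Nlgn1, Dlg2, Shank3 and Gria2 were not in the expression table, and only their promoters were looked at here. Grin2b was listed at 0 to 7.6 normalized counts and did not pass the filter on low values, so 30 genes were tested, 19 presynaptic, 10 postsynaptic and Gabbr1.

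A synapse passes a signal in one direction. On the presynaptic side, vesicles filled with transmitter carry the SNARE protein Vamp2, dock at the active zone with the help of Rab3, RIM and Munc13 proteins, and fuse when calcium binds a synaptotagmin and Vamp2 zips together with Snap25 and Stx1a. On the postsynaptic side, scaffolds such as Dlg4 (PSD-95), Shank and Homer hold AMPA and NMDA receptors for glutamate in place. Neurexins on the presynaptic membrane bind neuroligins across the cleft. Most of these genes are used late in neuronal maturation, and several, among them Snap25, Syt4 and Vamp2, are also used for secretion in cells that form no synapse.

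The cells were embryonic stem cells from mouse blastocysts of 4 genotypes: wild type, Cdc14a KO, Cdc14b KO and Cdc14ab KO, which lack one or both of a pair of phosphatases that oppose cyclin-dependent kinases. Each genotype was represented by 2 clones, numbered 1 and 3, and each clone was sampled at days 0, 2 and 7, which gave 24 libraries in 12 groups of 2. All lines had been grown on feeder cells in medium with LIF and were passed over gelatin at low density to remove the feeders before RNA extraction. Day 0 cells were in LIF medium. Differentiation was started by a change to N2B27 with EGF and FGF2, and from day 6 the cells grew densely on laminin without these factors. Each clone is a single derived line, so the p-values measure only the spread between these clones. Clones with the same number also tended to vary together across genotypes at days 0 and 7, and no test of change over days allowed for this. One field of the record of wild-type day 7 clone 3 calls that library undifferentiated, while its title and treatment say day 7.

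Libraries held 6422883 to 10856721 reads, each from near the 3′ end of a polyadenylated RNA. Values below are normalized counts, reads divided by a size factor per library and not by transcript length, so they are compared between libraries and not between genes. Where 2 values are given for a genotype, clone 1 stands first. A gene is called where its adjusted p in limma, corrected over all 16158 genes tested, was under 0.05. Changes are log2 fold changes ± SE on the log2(normalized count + 1) scale, which understates the change of low genes.

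The labelled lines could not be checked by their targeted genes. Cdc14b ranged over days from 103.5 to 262.6 in wild type, and its levels in Cdc14b KO (96.7 to 263.4) and Cdc14ab KO (101.2 to 325.3) overlapped these. Cdc14a was low in all 4 genotypes (at most 28). The part of each gene that was deleted is not given in the sources used here, and 3′ reads outside it check nothing. In 3 libraries Gm42418, whose locus holds ribosomal RNA sequence, took more than 7% of reads: Cdc14b KO day 0 clone 3, Cdc14ab KO day 0 clone 1 and Cdc14a KO day 2 clone 1. The lines also differed in sex-chromosome transcripts, with a sum over 4 Y-linked genes of 68.4 to 545.9 in wild type and Cdc14a KO and of 4.44 to 65 in the other lines. Syn1, Syp, Nlgn3 and Gria3 are X-linked. In Cdc14ab KO day 7 clone 3 the trophectoderm list (6 of 7 genes in the table) summed to 36947, against 4464 to 10593 in the other 7 day 7 libraries.

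The promoters of the members were searched for the RE1 element, the site of the repressor REST, which keeps many neuronal genes silent in other cells. RefSeq promoter windows (GRCm38.p6, 250 bases before to 50 after the start) were at hand for 25 of the 36 genes. Syt4, Snap25, Vamp2, Rims2, Nrxn2, Nlgn3, Shank1, Shank2, Gria1, Gria3 and Grin2b had no window and were not searched. Both strands were searched for the 21-base element with at most 2 mismatches in its 14 fixed letters. It was found in 0.743% of the 32851 windows of all genes, 244 in number. The 25 members had 39 windows, and the element was found in 1 window each of 2 members. Both matches are printed because no other member window held one. Capitals mark letters equal to a fixed letter of the element.
Syn1: ttCAGCACCgcGGtCAGagcC
Gria2: tttAGCACCgcGGACAGcgct
The Syn1 match lies at chrX:20921130-20921150 on the minus strand, with 1 mismatch, and its centre is at −222 bases from the start site. The Gria2 match lies at chr3:80802989-80803009 on the plus strand, with 2 mismatches. Neither match is evidence of binding, and a window without the letters says nothing about REST. Syn1 is the member of the pair with values, given below. Windows of the members held a median of 14 CG dinucleotides, against 7 over all windows.

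Most synapse genes were already detected in the stem cells at day 0. Snap25 stood at 3.56 to 19.2, Syt4 at 18 to 89.9, Vamp2 at 54.4 to 145.6, Dlg4 at 244.7 to 542.2 and Gabbr1 at 170.5 to 1031. The pan-neuronal list (12 of 12 genes in the table) summed to 2810 to 6088 in the same libraries, and none of its genes except Dcx was at 0. At the other end, Syn2 was at 0 to 3.12, Nrxn3 at 0 to 7.01 and Cplx2 at 0 to 14, near the limit set by counting.

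**Figure D1:**
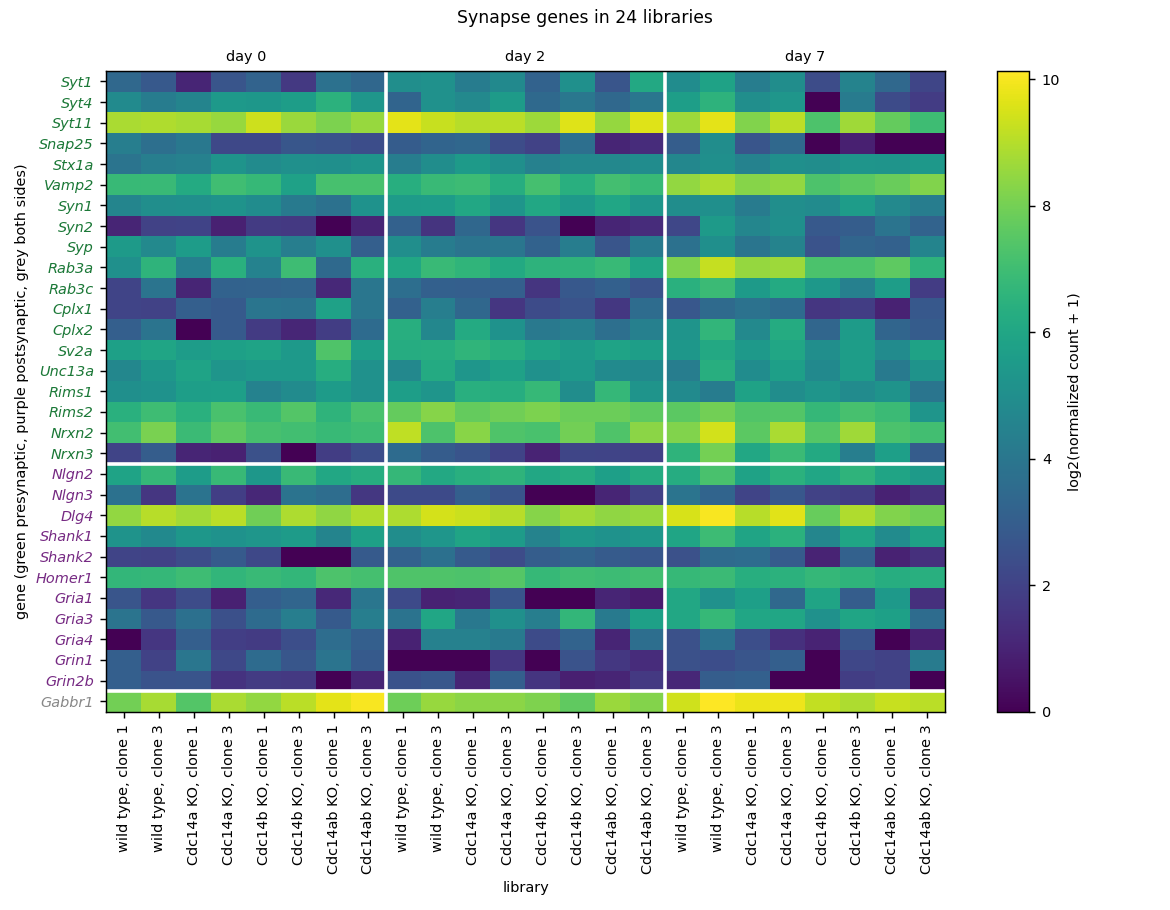
Level of 31 synapse genes in 24 libraries, as log2(normalized count + 1), with libraries in columns ordered by day, genotype and clone, and genes in rows. Nrxn3 and Rab3c are brighter at day 7 than at day 0 in the lines other than Cdc14ab KO clone 3, Dlg4 and Gabbr1 are bright in every library, and Snap25 and Syt4 are dark in the day 7 libraries of Cdc14b KO clone 1 and both Cdc14ab KO clones.

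Between day 0 and day 7, averaged over the 4 genotypes, 11 of the 30 synapse genes rose, 2 fell and 17 were not called. Of all genes tested, 20.9% rose and 17.4% fell, 38.2% in all, against 36.7% and 6.67% of the members. The members that rose were 8 presynaptic genes of 19, 2 postsynaptic genes of 10 and Gabbr1. The median change was 0.17 over presynaptic genes, 0.11 over postsynaptic genes and 0.03 over all genes. Without the 3 libraries rich in Gm42418 the calls of Syt1, Nrxn2, Gria1, Syt4 and Snap25 were lost.

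Nrxn3, a neurexin, had the largest change, with a median over 8 libraries of 2.87 (0 to 7.01) at day 0, 3.3 (0.997 to 10.6) at day 2 and 68.1 (6.71 to 256.1) at day 7. At day 7 the wild-type clones had 94.2 and 256.1, the Cdc14a KO clones 66.3 and 118, the Cdc14b KO clones 69.9 and 19.2 and the Cdc14ab KO clones 51.1 and 6.71. Only Cdc14ab KO clone 3 stayed within the range of day 0. The change was 4.12 ± 0.46 (adjusted p = 2.78e-06). Its relative Nrxn2 rose far less, from a median of 132 (113 to 267.5) to 240 (131 to 695.7), by 0.85 ± 0.31 (adjusted p = 0.0396), and the ranges overlapped. Its day 7 levels were 290.7 and 695.7 in the wild-type clones, 190.1 and 462.2 in the Cdc14a KO clones, 173.2 and 413.6 in the Cdc14b KO clones and 153.3 and 130.9 in the Cdc14ab KO clones. The Nrxn2 call was lost in 10 of the 16 fits that left out 1 library.

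Vamp2, the SNARE of the vesicle, was the presynaptic gene with the tightest rise. It stood at 54.4 to 145.6 at day 0, at 78.8 to 138.5 at day 2 and at 157 to 464.4 at day 7, so that every day 7 library lay above every earlier one. In the order wild type, Cdc14a KO, Cdc14b KO and Cdc14ab KO, which is kept below, its day 7 values were 361.6 and 464.4, 315 and 359.7, 157 and 190.6, and 226 and 292.9. The change from day 0 was 1.40 ± 0.20 (adjusted p = 2.68e-05). Syn2, a synapsin that tethers vesicles to one another, also had no overlap between day 7 (3.49 to 45.2) and day 0 (0 to 3.12), and rose by 2.48 ± 0.52 (adjusted p = 0.00108). The lowest day 7 library and the highest day 0 libraries held 3 reads each, so only their size factors set them apart. The day 7 values of Syn2 were 3.49 and 45.2, 23.9 and 31.7, 6.08 and 7, and 13.8 and 8.39. Vamp2 and Syn2 were 2 of the 30 genes with this separation, and 5.42% of all genes had it. Syn1, the synapsin with the RE1-type letters, showed another course: it rose by day 2 (0.92 ± 0.26, adjusted p = 0.024), with no overlap between day 0 (12.7 to 35.9) and day 2 (38.4 to 66.8). By day 7, at 17.4 to 47.2, it had fallen again (−0.82 ± 0.26, adjusted p = 0.0326), a call lost with lines paired over days (adjusted p = 0.0511). Syn1 and Rims2, described below, were 2 of the 30 genes with such a separation at day 2, and 2.15% of all genes had it. The last 500 bases of Syn1 overlap Araf on the opposite strand, and those of Syp, Unc13a, Shank1 and Grin1 overlap Gm14703, Colgalt1, 1700008O03Rik and Grin1os, also on the opposite strand. The kit keeps the strand of the transcript, per the labels.

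The small GTPases that recruit vesicles rose together. Rab3a went from a median of 58.7 (10.1 to 125.6) at day 0 to 243 (92.3 to 595.9) at day 7, a change of 2.42 ± 0.44 (adjusted p = 0.000361). Rab3c went from 8.2 (1.04 to 14.8) to 46.3 (2.52 to 118), a change of 2.55 ± 0.53 (adjusted p = 0.00104). Day 7 levels of Rab3a were 288.4 and 595.9, 363.8 and 401.2, 154 and 150.4, and 197.5 and 92.3 by genotype. For Rab3c they were 84.9 and 118, 44.5 and 72.4, 41.5 and 20.1, and 48.1 and 2.52. In both genes wild-type clone 3 was highest at day 7 and Cdc14ab KO clone 3 lowest. The last 500 bases of Rab3a overlap Mpv17l2 on the opposite strand.

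Complexins clamp and then release the assembled SNARE complex, and their 2 genes took different courses. Cplx2 rose from a median of 4.41 (0 to 14) at day 0 to 22.5 (11.8 to 80.3) at day 2 and 31.6 (6.71 to 101) at day 7. Its change by day 2 was 2.62 ± 0.47 (adjusted p = 0.00113) and by day 7 2.50 ± 0.47 (adjusted p = 0.000442). Its day 7 libraries held 37.2 and 101, 26.1 and 74.1, 9.12 and 46.3, and 8.84 and 6.71, highest in wild-type clone 3. Cplx1 was at 3.01 to 54.4 at day 0 and 0.982 to 13 at day 7, and its mean change of −0.84 ± 0.41 was not called (adjusted p = 0.116).

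The synaptotagmins, most of them calcium sensors, also differed from one another. Syt1, the sensor of fast release, rose early: 1.04 to 12.7 at day 0, 5.38 to 68.9 at day 2 and 3.36 to 56.3 at day 7. Its change was 1.78 ± 0.50 by day 2 (adjusted p = 0.0212) and 1.30 ± 0.50 by day 7 (adjusted p = 0.0448), the second lost in 11 of 16 fits that left out 1 library and with lines paired over days (adjusted p = 0.0501). At day 7 Syt1 was at 29.1 and 56.3, 18.5 and 30.1, 4.05 and 21.9, and 9.82 and 3.36 by genotype, so clone 1 of Cdc14b KO and both Cdc14ab KO clones stayed within the day 0 range. Syt4, a synaptotagmin of dense-core and other vesicles, fell on average from a median of 39.7 (18 to 89.9) to 24.5 (0 to 91.3), by 1.38 ± 0.46 on the log2 scale (adjusted p = 0.0242). Syt11, a synaptotagmin that does not bind calcium, was at 277.2 to 661.6 at day 0, 363.6 to 832.6 at day 2 and 125.1 to 845.1 at day 7. It fell by 0.89 ± 0.26 on the log2 scale from day 2 to day 7 (adjusted p = 0.0194).

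Snap25, the SNARE of the plasma membrane, fell on average by 1.15 ± 0.41 on the log2 scale (adjusted p = 0.033). Its median went from 5.31 (3.56 to 19.2) to 3.15 (0 to 29.9). The mean of Syt4 over genotypes covers opposite changes, a rise in both wild-type clones and a fall in all Cdc14b KO and Cdc14ab KO clones. Snap25 fell in all clones of these KO lines too, but clones of the other genotypes went opposite ways. It went from 19.2 to 6.98 and from 12 to 29.9 in the wild-type clones. In the Cdc14a KO clones it went from 15.6 to 5.43 and from 3.59 to 9.77. For both genes, wild-type clone 3 held the highest day 7 level and 1 or more Cdc14b-null libraries were at 0. Both calls were lost without the libraries rich in Gm42418, and in 5 and 8 of the 16 fits that left out 1 library. Stx1a, the syntaxin partner of Snap25, was level, at 13.9 to 36.9 at day 0 and 21.7 to 41.1 at day 7 (0.24 ± 0.22, adjusted p = 0.412).

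The remaining presynaptic genes were not called between day 0 and day 7. Syp, a membrane protein of the vesicle, changed by −0.87 ± 0.39 (adjusted p = 0.0825). Sv2a, another vesicle membrane protein, changed by −0.40 ± 0.24 (adjusted p = 0.208) and Unc13a, the priming factor Munc13-1, by −0.31 ± 0.32 (adjusted p = 0.476). Rims1 and Rims2 encode RIM scaffolds of the active zone. Rims2 was at 85.3 to 168.9 at day 0, 195 to 313 at day 2 and 37.8 to 249.3 at day 7. Its rise by day 2 (1.00 ± 0.22, adjusted p = 0.00576) and its fall after it (−0.83 ± 0.22, adjusted p = 0.0137) were both called. For Rims1 only the fall was called (−1.03 ± 0.30, adjusted p = 0.0194).

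Among the receptors, the AMPA receptor genes Gria1 and Gria3 rose. Gria1 went from a median of 4.75 (0.898 to 14.8) at day 0 to 38.2 (1.68 to 66.3) at day 7, by 2.14 ± 0.62 (adjusted p = 0.0107). Most of this rise came after day 2, when Gria1 was at 0 to 5.19 (3.42 ± 0.62 from day 2 to day 7, adjusted p = 0.00088). By genotype its day 7 values were 66.3 and 34.1, 52.1 and 9.77, 59.8 and 7, and 42.2 and 1.68, with clone 1 above clone 3 each time. Gria3 went from 11.6 (4.49 to 19) to 26.1 (13.5 to 103.9) at day 2 and 61.9 (10.9 to 109.3) at day 7, by 2.16 ± 0.45 over the week (adjusted p = 0.00115). Its day 7 libraries had 66.3 and 109.3, 63 and 62.7, 33.4 and 61.2, and 53.1 and 10.9, and only Cdc14ab KO clone 3 lay within the day 0 range. Gria4 (−0.35 ± 0.53, adjusted p = 0.636) was not called. Grin1, the obligatory NMDA receptor subunit, was at 3.01 to 14.6 at day 0, 0 to 5.07 at day 2 and 0 to 17.6 at day 7. Its fall by day 2 was 2.14 ± 0.51 on the log2 scale (adjusted p = 0.00847), but levels were near the counting limit and 4 of 8 day 2 libraries had no read.

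No postsynaptic scaffold or neuroligin was called between day 0 and day 7 in the mean over genotypes. Dlg4 was at 244.7 to 542.2 at day 0 and 214.7 to 1049 at day 7, a change of 0.20 ± 0.20 (adjusted p = 0.462). Shank1 (0.60 ± 0.27, adjusted p = 0.0818), Shank2 (0.58 ± 0.46, adjusted p = 0.337), Nlgn3 (−0.39 ± 0.48, adjusted p = 0.554) and Nlgn2 (0.02 ± 0.26, adjusted p = 0.965) were likewise not called. Homer1 stayed within a narrow band, at 101.4 to 158.2 at day 0, 108.6 to 172.2 at day 2 and 78.6 to 119.5 at day 7. Its fall after day 2 was called (−0.57 ± 0.14, adjusted p = 0.00811). Gabbr1, the GABA-B receptor subunit that binds GABA, rose by 0.67 ± 0.21 (adjusted p = 0.0161), from 170.5 to 1031 at day 0 to 464.3 to 1116 at day 7.

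By step, 5 members rose and 1 fell between day 0 and day 2, where 8.5% of all genes rose and 6.36% fell. The 5 were Syt1, Syn1, Cplx2, Rims2 and Gria3, and the 1 was Grin1. Without the libraries rich in Gm42418 the calls of Syt1, Syn1, Gria3 and Grin1 were lost. Between day 2 and day 7, 8 rose and 5 fell, against 12.1% and 9.3% of all genes. The 8 were Vamp2, Syn2, Rab3a, Rab3c, Nrxn3, Gria1, Grin1 and Gabbr1, and the 5 were Syt11, Syn1, Rims1, Rims2 and Homer1. Among the calls of the first step, Gria3 was lost in 8, Syn1 in 6 and Syt1 in 4 of the 16 fits that left out 1 library. Among those of the second, Grin1 was lost in 12, Syn1 in 9, Syt11 in 6, Rab3a in 5 and Rims1 in 4. With lines paired over days Gria4 was also called after day 2 (−1.21 ± 0.41, adjusted p = 0.0461).

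Presynaptic and postsynaptic genes were compared by their median change, without a test. The difference between the class medians, from day 0 to day 7, ran from −0.20 to 0.40 over the 8 lines. It was below 0 only in clone 3 of wild type (−0.20) and of Cdc14a KO (−0.05). Its SD of 0.21 is that of single lines and not the error of their mean. Taken from the fitted changes averaged over genotypes, the difference was 0.06. In wild type the medians were 0.83 and 0.59 in clone 1 and 1.38 and 1.58 in clone 3, presynaptic first. In Cdc14ab KO they were 0.19 and −0.21 in clone 1 and −0.58 and −0.80 in clone 3. Both classes were above the median of all genes in the 4 lines of wild type and Cdc14a KO. In the other 4 lines only the presynaptic medians of Cdc14b KO clone 3 and Cdc14ab KO clone 1 were above it.

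**Figure D2:**
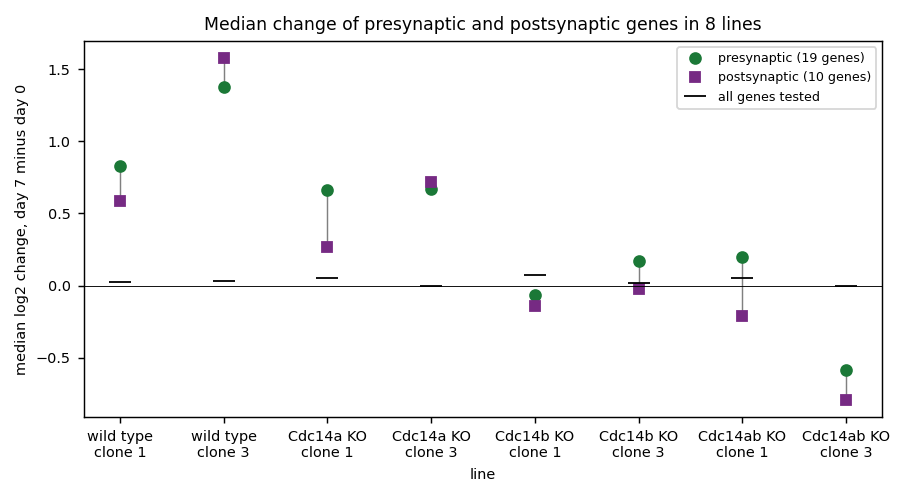
Median log2 change from day 0 to day 7 over 19 presynaptic genes (circles) and 10 postsynaptic genes (squares) in each of 8 lines, with the median of all genes tested as a bar. Both medians lie between 0.27 and 1.58 in the wild-type and Cdc14a KO lines and between −0.80 and 0.19 in the Cdc14b KO and Cdc14ab KO lines.

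Within each genotype, fewer members passed the test than in the mean over genotypes. In wild type 5 genes rose and none fell (Vamp2, Rab3c, Nrxn3, Gria3 and Gabbr1), where 5.46% of all genes rose and 1.89% fell. Of the 30 members 25 had a positive change, with a median of 1.08. In Cdc14a KO 7 rose and none fell (Vamp2, Syn2, Rab3a, Rab3c, Cplx2, Nrxn3 and Gabbr1), against 6.28% and 2.98% of all genes, and the median was 0.50. In Cdc14b KO 1 rose (Nrxn3) and 1 fell (Syt4), against 2.54% and 2.07%, with a median of 0.15. In Cdc14ab KO 1 rose (Syn2) and 4 fell (Syt4, Snap25, Cplx1 and Homer1), against 9.51% and 7.34%, with a median of −0.39.

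Nrxn3 and Vamp2 had a positive change in each genotype. Nrxn3 changed by 4.75 ± 0.92 in wild type, 5.51 ± 0.92 in Cdc14a KO, 3.98 ± 0.92 in Cdc14b KO and 2.22 ± 0.92 in Cdc14ab KO, the last not called (adjusted p = 0.102). Vamp2 changed by 1.84 ± 0.39, 1.79 ± 0.39, 1.16 ± 0.39 and 0.82 ± 0.39 in the same order. The first 3 values were called for Nrxn3 and the first 2 for Vamp2. Differences between these values were tested only by the interactions given further on. With lines paired over days the calls of Rab3c in wild type (adjusted p = 0.0511), Syn2 in Cdc14ab KO (adjusted p = 0.0525) and Homer1 in Cdc14ab KO (adjusted p = 0.0619) were lost. The same pairing added Rab3a in wild type (adjusted p = 0.0434), Gria3 in Cdc14a KO (adjusted p = 0.0475) and, as lower, Gria4 in Cdc14ab KO (adjusted p = 0.0245). These counts rested on single libraries. Without wild-type day 0 clone 1 or day 7 clone 3 no member was called in wild type, and without Cdc14a KO day 0 clone 1 or day 7 clone 3 there was 1 in Cdc14a KO. Without Cdc14b KO day 0 clone 3 or day 7 clone 1 none was called in Cdc14b KO, and without Cdc14ab KO day 0 clone 1 none in Cdc14ab KO.

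**Figure D3:**
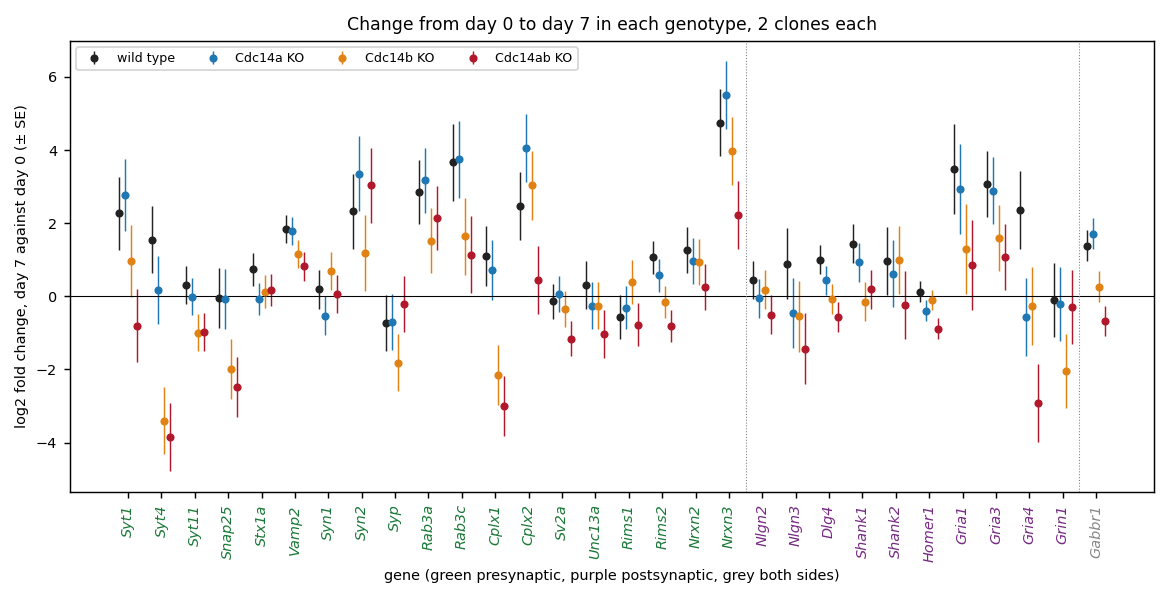
Fitted log2 fold change from day 0 to day 7 of 30 synapse genes in each genotype, with SE bars from the limma fit (2 clones a group). The wild-type and Cdc14a KO points lie above the Cdc14b KO and Cdc14ab KO points for Syt4, Snap25, Rab3c, Cplx1 and Gabbr1, and all 4 points lie above 0 for Vamp2 and Nrxn3.

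Genotypes were then compared at day 7 itself. Between Cdc14a KO and wild type limma called no member and 0% of all genes. At an unadjusted p under 0.05, 0 of the 30 and 0.433% of all genes passed, and edgeR and DESeq2 also called 0 members. Cdc14b KO against wild type gave 0 called members (0% of all genes) by limma and edgeR and 1 by DESeq2, Syt4 (1.03% of all genes). At an unadjusted p under 0.05, 7 of the 30 passed, all lower, as did 6.8% of all genes in that direction. In Cdc14ab KO 3 members were lower than in wild type (Syt4, Snap25 and Dlg4) and none higher, where 1.45% of all genes were lower and 0.0805% higher. None was called there without wild-type clone 3 or without Cdc14ab KO clone 3. Cdc14ab KO against Cdc14b KO gave 0 members by limma and edgeR (0% of all genes) and by DESeq2 (0.111%), and 0 at an unadjusted p under 0.05 (4.79% of all genes).

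Snap25 had 0 reads in both Cdc14ab KO day 7 libraries. Its wild-type clones had 6.98 and 29.9, the Cdc14a KO clones 5.43 and 9.77 and the Cdc14b KO clones 0 and 0.874, the last a single read. With 3 reads per library as the floor, its Cdc14ab KO level was at least 6.74-fold lower than the wild-type mean at day 7. That mean, 18.4, was raised by clone 3, and the bound against clone 1 alone would be smaller. Against the mean of its own day 0 (5.06 and 4.22) it was at least 1.70-fold lower. The floor covers counting error only, since reads carried no molecular identifiers. The 4 Cdc14b-null libraries lay below the 4 others without overlap.

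Taking wild type with Cdc14a KO as Cdc14b-intact and Cdc14b KO with Cdc14ab KO as Cdc14b-null, 3 members were lower in the null lines at day 7 and none was higher. Of all genes, 2.95% were lower and 0.805% higher. The 3 were a synaptotagmin, a SNARE and a scaffold. The same lines also split by the sum over Y-linked genes, at 68.4 to 545.9 in intact and 4.44 to 65 in null lines. In any comparison of null with intact lines, Cdc14b status and this split cannot be told apart, and the part of the split was not tested. The levels of Syt4 were 50 and 91.3 for wild type, 31.5 and 39.1 for Cdc14a KO, 0 and 17.5 for Cdc14b KO and 3.93 and 2.52 for Cdc14ab KO. Every null library lay below every intact one, and the difference was −3.56 ± 0.65 (adjusted p = 0.00673). Snap25, with the values above, differed by −3.29 ± 0.58 (adjusted p = 0.00551), a fitted value that depends on the pseudocount.

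Dlg4, the main scaffold of the excitatory postsynapse, had levels of 720.9 and 1049 for wild type, 519.2 and 806.4 for Cdc14a KO, 214.7 and 488.8 for Cdc14b KO and 294.7 and 252.6 for Cdc14ab KO. The sides again did not overlap (−1.33 ± 0.29, adjusted p = 0.0156). Its levels were far from the counting limit. Leaving out wild-type day 7 clone 3, or Cdc14a KO day 7 clone 3, left no member called. Without Cdc14ab KO day 7 clone 3, the library high in the trophectoderm list, Syt4 and Snap25 were called and Dlg4 was not, and Dlg4 was also lost without Cdc14b KO day 7 clone 1.

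For most other members the difference had the same sign and did not pass the test. Of the 30 genes 28 had a negative difference, with a median of −1.11 against −0.01 over all genes; Stx1a (0.41 ± 0.31) and Syn1 (0.09 ± 0.37) were the exceptions. The presynaptic median was −1.11 and the postsynaptic median −1.13. Nrxn3 was at 66.3 to 256.1 in intact and 6.71 to 69.9 in null libraries (−2.10 ± 0.65, adjusted p = 0.078). DESeq2 on the recovered reads called 8 members as lower, against 5.37% of all genes: the 3 above with Syt11, Vamp2, Cplx2, Rims2 and Nrxn3. With the clone number as a block limma called 4 as lower (4.23% of all genes), the 3 above with Syt11 (−1.25 ± 0.34, adjusted p = 0.0381; 0.059 without the block). The median stayed between −1.27 and −0.92 when each day 7 library was left out in turn.

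Counted by overlap alone, 9 of the 30 members had all 4 null libraries below all 4 intact ones at day 7, and none the reverse, against 7.87% and 7.72% of all genes. Besides Syt4, Snap25 and Dlg4 these were Vamp2, Rab3a, Rims2, Nlgn3, Gria3 and Gabbr1. Vamp2 was at 315 to 464.4 in intact and 157 to 292.9 in null libraries, and Rab3a at 288.4 to 595.9 and 92.3 to 197.5. At day 2 the same held for 5 members, Cplx2, Sv2a, Nlgn3, Dlg4 and Homer1 (3.99% of all genes), and none was higher (2.08%). Homer1 was at 154.9 to 172.2 in intact and 108.6 to 131.4 in null libraries on that day. At day 0 no member was lower (3.67% of all genes) and Cplx1 alone was higher in null lines (3.1% of all genes).

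By the test, no member was called between null and intact lines at day 0 or day 2. At day 0 0.0124% of all genes were called and at day 2 0%. At an unadjusted p under 0.05, 2 members passed at day 0, both higher in null lines, against 4.93% of all genes. At day 2 there were 3, all lower, against 3.79%. DESeq2 and edgeR also called 0 members on either day, where DESeq2 called 0.421% of all genes at day 0 and 0.303% at day 2.

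**Figure D4:**
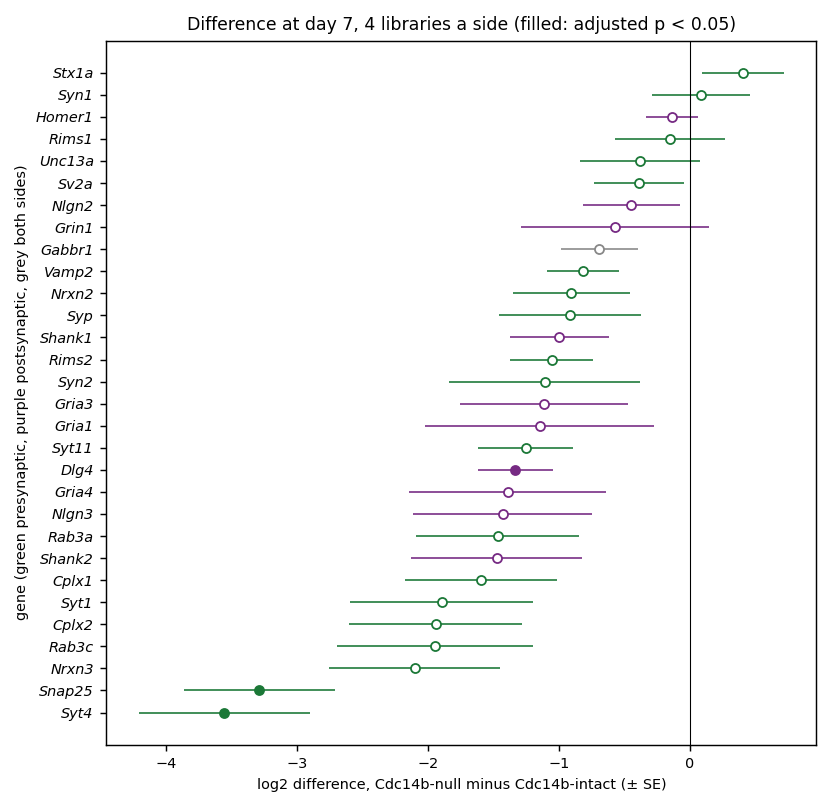
Fitted log2 difference at day 7 between Cdc14b-null and Cdc14b-intact lines for 30 synapse genes, 4 libraries a side, with SE bars; filled points have an adjusted p under 0.05. Syt4, Snap25 and Dlg4 are filled, and 28 of 30 points lie left of 0.

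Markers of neurons moved with these differences. The pan-neuronal list summed to 3846 to 12504 in the intact lines at day 7, highest in wild-type clone 3 and then Cdc14a KO clone 3, and to 1469 to 3144 in the null lines. None of its 12 genes was at 0 in any day 7 library. The neural progenitor list (6 of 7 genes in the table) summed to 1782 to 3720 and 591.7 to 1286, and the neuroendocrine list (7 of 7) to 180.3 to 321 and 49.6 to 102.3. The glial list (9 of 11) summed to 560.4 to 793.9 and 326.1 to 527.1, with Olig2 at 0 in 3 of 4 null libraries. Presynaptic members summed to 1738 to 3819 and 903.1 to 1662, and postsynaptic members to 861.3 to 1626 and 469.2 to 830.7. In bulk RNA fewer cells of a type and less RNA per cell cannot be told apart, and the part of these markers in the differences between genotypes was not tested.

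The other lists, of cell types that form no synapses, were as follows. The feeder list (8 of 8) summed to 2186 to 3073 in intact and 334.1 to 1918 in null lines at day 7. Its day 0 sums were far lower, at 145.4 to 369.2 in intact and 158 to 237.8 in null lines. Over the week 7 of its genes rose and 1 fell. Which cells made this RNA at day 7 was not tested, so the sums are not a measure of feeder cells left over. The pluripotency list (7 of 7) overlapped at day 7, at 7108 to 12935 and 9094 to 14031. Most of each sum was Pou5f1, with medians of 7155 in intact and 7593 in null lines. Of its 7 genes only Utf1 was called at day 7, as higher in null lines (medians 715.1 and 1607), where 0.805% of all genes were higher. The fitted difference was positive for 4 of the 7 genes and negative for 3. At day 0 the pan-neuronal sums were reversed, at 2810 to 3236 in intact and 3568 to 6088 in null lines.

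**Figure D5:**
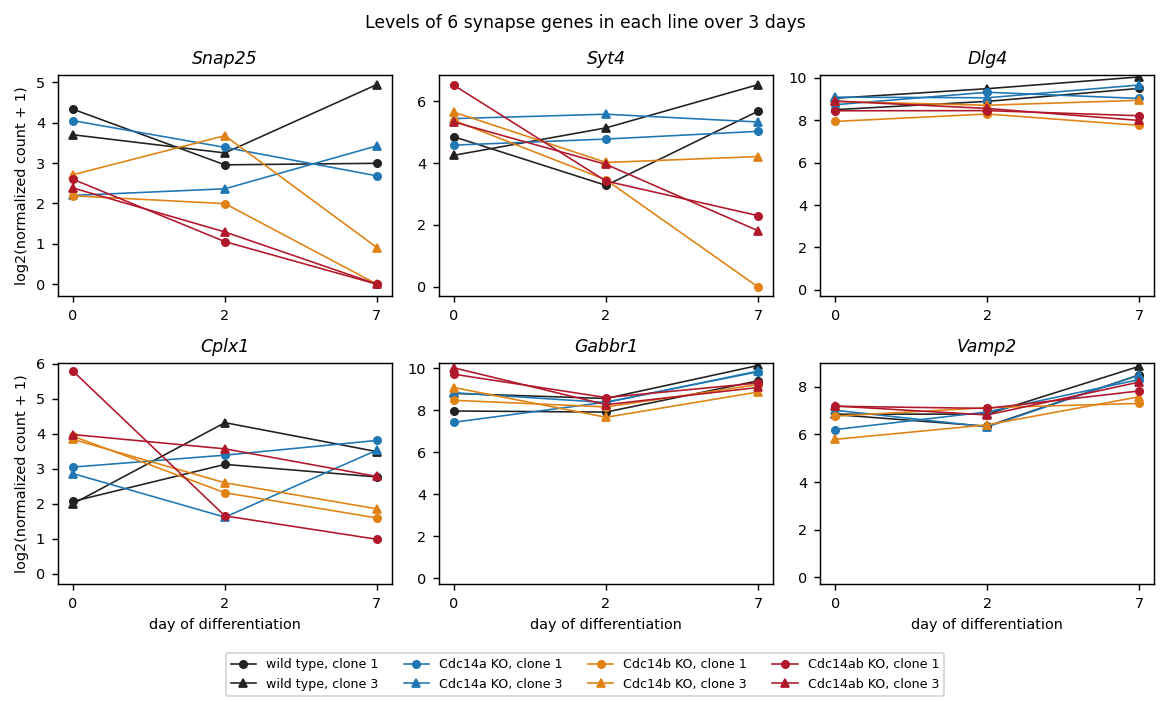
Level of 6 synapse genes over days 0, 2 and 7 in each of 8 lines, as log2(normalized count + 1), clone 1 as circles and clone 3 as triangles. In the Cdc14b KO and Cdc14ab KO lines Syt4 goes from 39 to 89.9 normalized counts at day 0 to between 0 and 17.5 at day 7, while Vamp2 is higher at day 7 than at day 0 in all 8 lines.

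Whether the change over the week itself differed between null and intact lines was tested as an interaction. It was called for 3 members, Syt4 (−4.49 ± 0.92, adjusted p = 0.0249), Cplx1 (−3.48 ± 0.82, adjusted p = 0.0333) and Gabbr1 (−1.76 ± 0.42, adjusted p = 0.0333), all with a lower change in null lines. Of all genes 1.68% had a lower and 1.58% a higher change. Part of each came from day 0. At day 0 the Cdc14b KO clones had Cplx1 levels of 14.3 and 13.3 and the Cdc14ab KO clones of 54.4 and 14.8, above the 3.01 to 7.28 of the intact lines. At day 7 it was at 2.03 and 2.62 and at 0.982 and 5.88 in these null lines and at 5.81 to 13 in the intact lines.

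Gabbr1 showed the same crossing. At day 0 the wild-type clones had 247.6 and 442.8, the Cdc14a KO clones 170.5 and 453.3, the Cdc14b KO clones 352.8 and 537.8 and the Cdc14ab KO clones 835.3 and 1031. At day 7 the values were 672.1 and 1116, 905.8 and 927.7, 592.5 and 464.3, and 624.8 and 538.9 in that order. Day 7 was above day 0 in all 4 intact lines and below it in 3 of 4 null lines. All 3 interactions lost the call without the libraries rich in Gm42418, 2 of which are null lines at day 0. Each was also lost in 7 to 11 of the 16 fits that left out 1 library, among them those without clone 3 of wild type at day 0 or at day 7. The interaction of Cdc14ab KO against wild type alone gave 0 members by limma (0.192% of all genes) and by edgeR (0.179%), with 9 of 30 at an unadjusted p under 0.05 (18.8%). It gave 2 by DESeq2 (Syt4 and Gabbr1, against 5.92% of all genes), and 2 with each line paired over days (Syt4 and Gria4, against 1.65%).

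Some members separated the clones by number across genotypes. At day 0 the 4 clone 3 libraries lay above the 4 clone 1 libraries for Rab3a (84.4 to 125.6 against 10.1 to 33.1), Rims2 (125.2 to 168.9 against 85.3 to 115.2), Nlgn2 (79.1 to 115.6 against 40.4 to 67.1) and Dlg4 (470 to 542.2 against 244.7 to 423.2). They lay below for Syp (7.39 to 26 against 32.9 to 47.8) and Grin1 (3.01 to 6.33 against 7.47 to 14.6). Of all genes 6.44% were above and 6.66% below in this way. At day 2 clone 3 was above clone 1 for Gria3 (33.2 to 103.9 against 13.5 to 18.9), as for 5.68% of all genes, and below it for none (3.48%). At day 7 it was above for Sv2a and Unc13a and below for Gria1 (1.68 to 34.1 against 42.2 to 66.3), as for 3.52% and 5.23% of all genes. The labels give no reason for the number. Over the week Rab3a, for instance, went from 10.1 to 197.5 in Cdc14ab KO clone 1 and from 84.4 to 92.3 in clone 3.

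The members were set beside other synapse genes taken from a list by name. Of 40 other presynaptic genes 35 were in the table and 32 were tested; 8 rose and 4 fell from day 0 to day 7, or 25% and 12.5%, against the 20.9% and 17.4% of all genes. Of 40 other postsynaptic genes 23 were in the table and 20 were tested; 5 rose and 2 fell, or 25% and 10%. Their medians were 0.25 and 0.23. Among the presynaptic genes with the smallest adjusted p were Sh3gl2, an endophilin of vesicle recycling, which fell (−2.42 ± 0.21, adjusted p = 1.42e-07), and Snap91, a clathrin adaptor, which rose (2.16 ± 0.31, adjusted p = 3.99e-05). On the postsynaptic side Dlg3, a relative of Dlg4, rose by 2.05 ± 0.28 (adjusted p = 2.16e-05), Glrb, the beta subunit of the glycine receptor, by 1.89 ± 0.44 (adjusted p = 0.00257) and Gabra2, a GABA-A receptor subunit, by 1.60 ± 0.40 (adjusted p = 0.00404). Dlg3 was at 110.1 to 811.5 at day 0 and 1107 to 2939 at day 7. At day 7, 3 of the other presynaptic genes were lower in null than in intact lines (Slc32a1, Doc2b and Cask), and none of the other postsynaptic genes was called.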

How the data were processed

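Per the labels' protocols, total RNA was made into QuantSeq 3′ FWD libraries and sequenced as single reads. The submitters' processing notes name TopHat2 (2.0.10) and Bowtie (1.0.0), SAMtools (0.1.19), HTSeq (0.6.1), FastQC (0.11.7), DESeq2 and the build GRCm38. The sources used here do not give the annotation. The deposited table holds signal, gene counts that the authors had normalized with DESeq2. Within 0.001, every value (100%) divided by the lowest value above 0 of its library gave a whole number, taken as reads; in wild-type day 0 clone 3 and Cdc14b KO day 2 clone 1 that step is close to 1, which makes the recovery there hard to tell from whole-number rounding.

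The main test was limma 3.58.1 in R 4.3.3 (trend and robust) on log2(normalized count + 1), with 12 group means over 24 libraries and 12 residual degrees of freedom. The test took the 16158 of 17545 genes that reached 10 normalized counts in 2 or more libraries, with Benjamini-Hochberg adjustment over all of them and a threshold of 0.05. Alternatives were a pseudocount of 5, no filter, TMM factors, count tests on the recovered reads (edgeR 4.0.16, DESeq2 1.42.0), a replicate block and each library left out. Leaving out the 3 libraries where Gm42418 took over 7% of reads was an alternative chosen after seeing the data. With a library left out, the lone clone of its group is assumed to vary like other groups. The fit was also run on simulated data in which libraries varied independently of one another, and the outcome is not given here.

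By the labels' genotype and clone number each line was sampled on all days, so libraries were paired by line for changes over days; deviations of paired libraries from their group means correlated at −0.12 to 0.25 (12 pairs). Across genotypes, deviations of clones with the same number correlated at 0.12 to 0.51 at day 0, −0.13 to 0.63 at day 2 and 0.23 to 0.54 at day 7 (6 pairs a day). Every pair was over 0.1 at days 0 and 7 and not at day 2, and the labels give no reason for the number. Libraries of a day may thus not be independent across genotypes. Changes over days were blocked by line only, so p-values of changes averaged over genotypes could be too small. Day 7 values are given by library for members called over the week, between genotypes or by an interaction, and for the members with the largest differences between null and intact lines, and by range for the rest. Up to 3 other synapse genes a side were named, those with the smallest adjusted p over the week; 1 of them is not reported here. Gene positions came from GENCODE M21 (GRCm38). The members and lists were chosen with earlier results of these data known. Figures were drawn with matplotlib 3.10.9.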

Additional observations from a re-analysis of the deposited data

Results flagged for a closer look

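For 3 members the change from day 0 to day 7 differed between Cdc14b-null and Cdc14b-intact lines by the test of the difference itself (limma interaction, 4 lines a side). Syt4 had an interaction of −4.49, with changes of 1.55 in wild type, 0.17 in Cdc14a KO, −3.40 in Cdc14b KO and −3.86 in Cdc14ab KO. Cplx1 had an interaction of −3.48, with changes of 1.09, 0.72, −2.16 and −3.00 in the same order. Gabbr1 had an interaction of −1.76, with changes of 1.38, 1.72, 0.27 and −0.68. The summed pan-neuronal list was likewise higher in null lines at day 0 and lower at day 7, and its part was not tested. None of the 3 calls held without the libraries rich in Gm42418, which leaves fewer samples at day 0.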

How the results depend on the processing

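No member call changed sign under any alternative. Of the 60 calls of members over all comparisons, 58 were kept by DESeq2, 58 with TMM factors, 59 without the filter, 55 with a pseudocount of 5, 55 with the replicate block, 52 by edgeR and 35 without the 3 libraries rich in Gm42418. Counts of called members that moved by more than 1.5 times were as follows, and the cause was not tested. Shares of all genes under the same settings are given only where they are printed above. Here and below, a count without such a share describes the setting and is not a result about the members. DESeq2 gave 11 between day 0 and day 2 (6 higher, 5 lower), 9 over the week in wild type, 1 at day 7 for the Cdc14b KO and 6 for the Cdc14ab KO lines against wild type, 8 for null against intact lines at day 7 and 2 for the interaction of Cdc14ab KO with wild type. By edgeR the count was 2 over the week in wild type and 1 in Cdc14b KO. A pseudocount of 5 gave 1 over the week in Cdc14b KO, 3 in Cdc14ab KO and 1 for the interaction of Cdc14ab KO. Without the libraries rich in Gm42418 there were 2 by day 2, 8 over the week, 0 over the week in Cdc14b KO and in Cdc14ab KO, 1 at day 7 between the Cdc14ab KO lines and wild type, and 0 for the interaction of null lines.

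With each line paired over days as a replicate block the interaction of Cdc14ab KO gave 2 members; between genotypes, a block on the clone number added Syt11 to the 3 members called for null against intact lines at day 7 and changed no other member call. Leaving out 1 library at a time, counts ran from 4 to 8 between day 0 and day 2, 9 to 12 between day 2 and day 7 and 8 to 16 over the week. By genotype they ran over the week from 0 to 3 in wild type, 1 to 6 in Cdc14a KO, 0 to 2 in Cdc14b KO and 0 to 6 in Cdc14ab KO. At day 7 they ran from 0 to 1 for Cdc14b KO and 0 to 4 for Cdc14ab KO against wild type and 0 to 6 for null against intact lines. They ran from 0 to 1 for that contrast at day 0, and 0 to 3 for either interaction. The presynaptic minus postsynaptic median ran from −0.03 to 0.25. Genes at a few reads, such as Snap25, Nlgn3, Gria4, Grin1 and Shank2, are limited by depth.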
